A study of Mus musculus with 2 samples.

Results

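Cytokine receptor chains of B cells were compared between follicular (FO) and marginal zone (MZ) B cells, the recirculating and the marginal-sinus-resident mature B cells of the mouse spleen. The group held 10 genes chosen by name, with earlier results of these data known. These were Il4ra, Il2rg, Il21r, Il6ra and Il6st of the class I receptors, and Il10ra, Il10rb, Ifngr1, Ifngr2 and Ifnar1 of the class II receptors. All probe sets annotated to 1 of these genes and to no other were taken, which gave 17 of the 22626 probe sets on the arrays, for 9 genes. No probe set was named as Il2rg, the common gamma chain shared with the interleukin-4 and interleukin-21 receptors, in the annotation used, and it was not analysed here.

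The samples were 1 array of FO and 1 array of MZ B cells from wild-type female C57BL/6 mice, 3 per preparation. Splenic B cells were enriched on beads against B220 and sorted on CD23 and CD21, with high CD23 and intermediate CD21 for FO cells and the reverse for MZ cells. Sorted cells were pooled, so each array is a mean over mice, and the labels give neither the age of the mice nor whether 1 set of mice supplied both populations. With 1 array per population there is no replicate error and no test between them: values describe these 2 arrays, so the number of arrays limits the precision. A difference in signal also cannot separate fewer expressing cells from less RNA per cell.

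Cytokine receptors of these classes are built from paired chains. Usually a ligand-binding chain sets which cytokine is bound and a partner, often shared between several cytokines, completes the signalling complex. The tails of most of the chains, though not of Il6ra, carry JAK kinases, which phosphorylate STAT transcription factors. STAT factors in turn induce SOCS proteins that damp the signal. In B cells interleukin-4 and interferon gamma steer class switching in different directions, and interleukin-21, interleukin-6 and interleukin-10 promote growth or antibody secretion.

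Promoter sequences are shown for the 4 receptor genes with the largest difference between the populations, and for Il6st, which had the higher signal in the other population. Each is the 250 bases upstream of the RefSeq start on GRCm38.p6, written 5′ to 3′ on the gene's strand, with matches to the searched motifs in capitals.
Il4ra, chr7:125552021-125552270, + strand: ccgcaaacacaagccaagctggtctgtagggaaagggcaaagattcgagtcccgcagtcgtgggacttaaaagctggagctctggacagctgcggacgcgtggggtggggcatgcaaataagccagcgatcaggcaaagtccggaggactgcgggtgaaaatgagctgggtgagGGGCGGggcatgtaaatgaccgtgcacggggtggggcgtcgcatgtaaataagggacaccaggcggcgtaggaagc
Il6ra, chr3:89913197-89913446, - strand: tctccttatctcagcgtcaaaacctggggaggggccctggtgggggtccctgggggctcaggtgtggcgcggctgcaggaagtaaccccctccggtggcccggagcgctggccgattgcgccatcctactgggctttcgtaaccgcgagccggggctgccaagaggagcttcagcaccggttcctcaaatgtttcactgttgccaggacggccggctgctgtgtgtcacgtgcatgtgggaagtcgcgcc
Ifngr2, chr16:91546809-91547058, + strand: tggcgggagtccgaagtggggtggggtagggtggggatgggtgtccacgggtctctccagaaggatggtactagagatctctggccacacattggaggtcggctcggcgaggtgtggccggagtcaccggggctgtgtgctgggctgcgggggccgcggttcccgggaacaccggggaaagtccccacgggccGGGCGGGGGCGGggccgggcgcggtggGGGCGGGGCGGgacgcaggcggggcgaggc
Ifnar1, chr16:91484965-91485214, + strand: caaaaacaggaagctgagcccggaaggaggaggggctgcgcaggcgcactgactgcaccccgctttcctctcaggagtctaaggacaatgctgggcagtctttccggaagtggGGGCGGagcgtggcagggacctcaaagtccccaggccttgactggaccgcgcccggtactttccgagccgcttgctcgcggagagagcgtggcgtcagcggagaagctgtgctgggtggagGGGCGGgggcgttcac
Il6st, chr13:112463820-112464069, + strand: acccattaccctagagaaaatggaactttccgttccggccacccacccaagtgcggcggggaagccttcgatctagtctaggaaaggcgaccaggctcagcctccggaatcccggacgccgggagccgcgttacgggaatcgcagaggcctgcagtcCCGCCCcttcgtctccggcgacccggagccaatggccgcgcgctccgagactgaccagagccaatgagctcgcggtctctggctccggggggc
The motifs were searched on both strands. They were GGGCGG for the GC box, TTCNNNGAA, the spacing used by most STAT factors, and TATAAA for the TATA box. The wider spacing favoured by STAT6, the factor of Il4ra, was not searched. Of the 9 genes with signals, 7 had a promoter in the RefSeq table, and Il10ra and Il10rb did not. The GC box was present in 6 of the 7, all but Il6ra, against 32.7% of 32851 promoters of the same length. Matches may overlap: the 4 GC boxes of Ifngr2 included a pair that shared a base. TTCNNNGAA and the TATA box had 0 matches in the 7 promoters, against 7.02% and 12.4% of all promoters. The GC share was 59.6% for Il4ra, 74.0% for Ifngr2, 65.6% for Ifnar1, 65.2% for Il6ra and 66.0% for Il6st, and the median over all promoters was 52.4%. These matches describe the letters of this window only, and the arrays did not measure binding to them.

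Signals are MAS5 intensities scaled to a common trimmed mean, with FO cells before MZ cells. A floor at the median of all scaled values, a signal of 12.7, was set by choice, because dim MAS5 signals are noisy. Signals below it were not ranked. Probe sets above the floor on at least 1 array were taken as measured, and a fold against a value below the floor is written "at least" and taken against the floor. Of the 17 probe sets 12 were measured and 5 lay below the floor on both arrays. Where a gene had several measured probe sets, the brightest of them, by mean log2 signal, stands for the gene. Levels of different probe sets are not compared with each other, since probes differ in brightness.

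Most of the receptor chains had the higher signal in FO B cells. Of the 9 genes, 8 were higher in FO cells, 4 of them at least 2-fold (Il4ra, Il6ra, Ifngr2 and Ifnar1), and 1, Il6st, was higher in MZ cells. None of the 9 was at least 2-fold higher in MZ cells. Among all 7695 measured genes, 52.2% had the lower signal in MZ cells. At least 2-fold higher were 4.86% in FO and 4.39% in MZ cells. Il10rb, 1 of the 8, had a log2 ratio of -0.05, close to the median of all genes. The median log2 ratio of MZ over FO signal was -0.71 over the 9 genes and -0.03 over all genes. By probe set, 5 of the 12 measured were at least 2-fold higher in FO cells and 0 in MZ cells, against 5.02% and 4.36% of all 11671 measured probe sets of 1 gene. The receptors were chosen with earlier results of these data known, so these shares describe the group and do not test it.

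**Figure D1:**
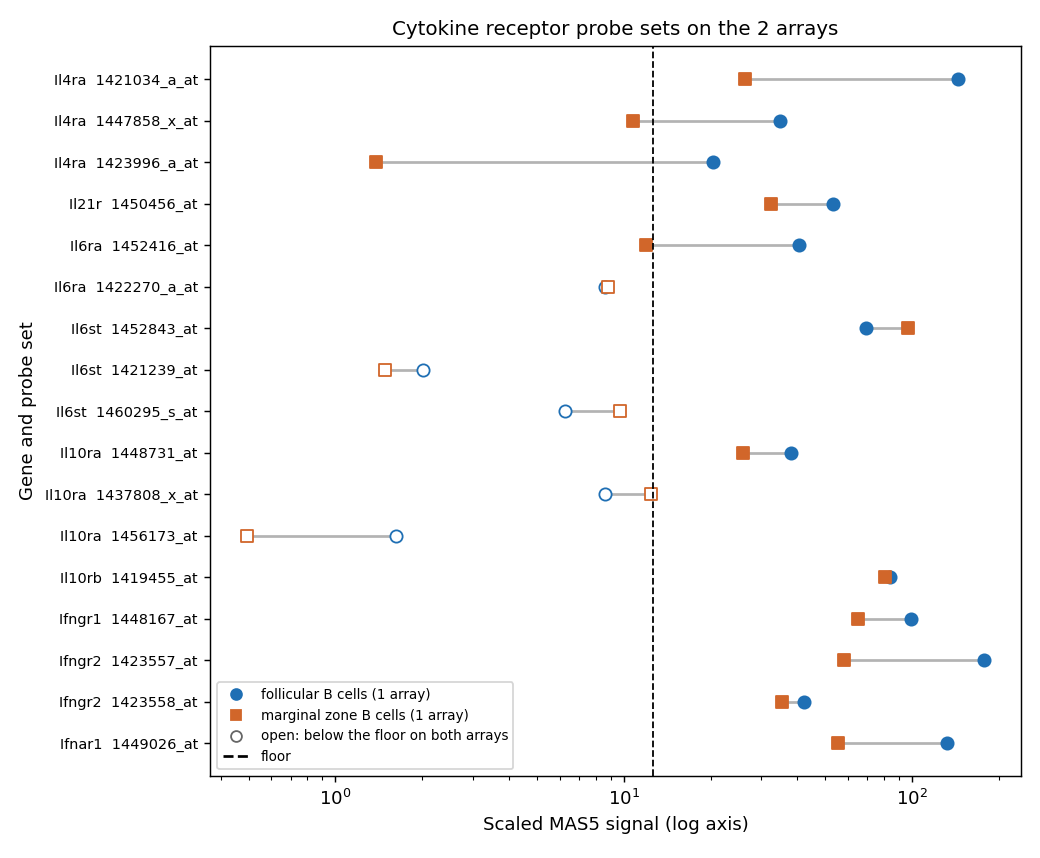
Scaled MAS5 signal (log axis) of each of the 17 probe sets in FO (circles) and MZ (squares) B cells, 1 array each, with the floor of 12.7 as a dashed line and open symbols for probe sets below it on both arrays. Among the 12 measured probe sets the circle lies to the right of the square in 11, and for Il6st (1452843_at) to the left.

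Il4ra, the alpha chain that binds interleukin-4 and pairs with the common gamma chain or with the interleukin-13 receptor chain Il13ra1, differed most. Its probe set 1421034_a_at had a signal of 144.5 in FO and 26.3 in MZ B cells, 5.49-fold higher in FO cells. Only 6 of the 7695 genes had a lower ratio of MZ over FO signal, a rank within a group chosen with earlier results known. The rank depends on the floor, since ratios of genes below it in MZ cells are bounds, and on the brightest probe set of each gene. Both signals of Il4ra were above the floor used, so its 5.49-fold difference is not a bound. Its size still varied with the treatment of low signals. The log2 ratio was -1.66 with a floor at the 75th percentile and -2.01 with a pseudocount.

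The other probe sets of Il4ra lay on the same side. Probe set 1447858_x_at, of a type with probes that may cross-hybridise, had signals of 34.8 and 10.8, at least 2.74-fold higher in FO cells. Probe set 1423996_a_at was at 20.4 and 1.39, at least 1.61-fold, a bound set by the floor since the follicular signal was itself dim. The 3 probe sets thus shared the direction. Only the first of them gives a measured ratio, a log2 value of -2.46, and the other ratios are bounds. Probe sets of the same gene had a pooled SD of 0.43 (log2, after the floor) over the 2622 genes with several measured probe sets, which covers probe behaviour and not variation between mice. Il13ra1, the partner that lets Il4ra also bind interleukin-13, was below the floor on both arrays in all 5 of its probe sets.

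Il21r, the ligand-binding chain for interleukin-21, a product of helper T cells that drives germinal centre and plasma cell responses, had a single probe set. It was at 53.2 in FO and 32.5 in MZ cells, 1.64-fold higher in FO cells. That is within the 2-fold threshold and on the same side as Il4ra.

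The chains of the interleukin-6 receptor differed in direction. Il6ra, which binds interleukin-6, was at 40.5 in FO cells and at 12.0, just below the floor, in MZ cells, at least 3.20-fold higher in FO cells. This rests on probe set 1452416_at alone, because its other probe set, at 8.59 and 8.81, was below the floor on both arrays. Il6st encodes gp130, the signalling chain shared by the interleukin-6 family. Its probe set 1452843_at was at 69.3 and 96.9, 1.40-fold higher in MZ cells, and was the only measured probe set of the group on that side. The other probe sets of Il6st were at 2.02 and 1.48 and at 6.27 and 9.70, below the floor on both arrays.

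The chains of the interleukin-10 receptor differed little. Il10ra, the ligand-binding chain, was at 38.1 in FO and 25.8 in MZ cells, 1.47-fold higher in FO cells. Its other probe sets were below the floor on both arrays, at 8.59 and 12.5 and at 1.62 and 0.495. Il10rb, the chain shared with the interleukin-22 receptor and other members of the family, was at 83.7 and 80.6, a 1.04-fold difference and the smallest of the 9 genes.

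Both chains of the interferon gamma receptor had the higher signal in FO cells. Ifngr1, the ligand-binding chain, was at 99.3 in FO and 64.7 in MZ cells, 1.53-fold higher. Ifngr2, the chain that completes the signalling complex, was at 177.1 and 58.1, 3.05-fold higher, by probe set 1423557_at. Its other probe set, 1423558_at, was at 42.2 and 35.3, only 1.20-fold higher. The Ifngr2 probe sets therefore shared a direction and not a size: their mean log2 ratio was -0.93, which is short of 2-fold, and the call depends on which probe set is read.

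The type I interferon receptor, like the interleukin-6 receptor, had its chains on opposite sides. Ifnar1 was at 132.4 in FO and 55.2 in MZ cells, 2.40-fold higher in FO cells, by its only probe set. Its partner Ifnar2, which is not one of the 10 genes, was at 55.4 and 98.3, 1.77-fold higher in MZ cells. A further probe set of Ifnar2, at 12.8 and 28.4, was 2.21-fold higher there. Whether such partner chains differ from each other was not tested, since no replicate exists.

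**Figure D2:**
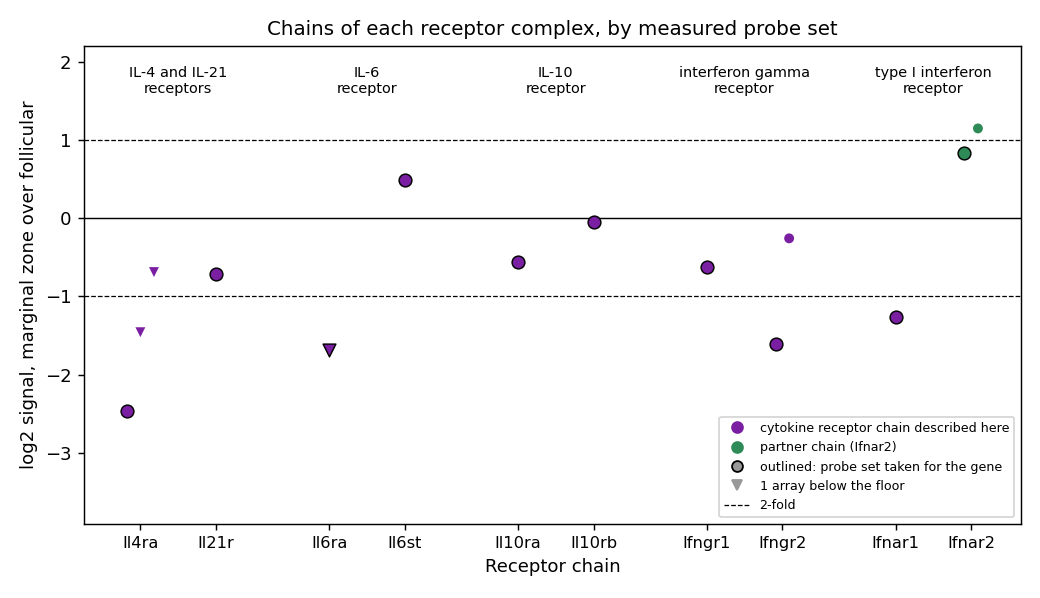
Log2 ratio of MZ over FO signal for every measured probe set, grouped by receptor complex, with 1 array per population; outlined symbols mark the probe set taken for the gene and triangles those with 1 array below the floor. Points below 0 are higher in FO cells. The Il6ra and Il6st pair and the Ifnar1 and Ifnar2 pair straddle 0, while both interferon gamma receptor chains lie below it.

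Placed among all genes, Il4ra, Il6ra, Ifngr2 and Ifnar1 lay outside the 2-fold lines on the follicular side. In order of the ratio, Il4ra was followed by Il6ra at a log2 ratio of -1.68, Ifngr2 at -1.61, Ifnar1 at -1.26, Il21r at -0.71, Ifngr1 at -0.62, Il10ra at -0.56, Il10rb at -0.05 and Il6st at 0.48. Il6ra, Ifngr2 and Ifnar1, and likewise Il21r, Ifngr1 and Il10ra, differed from each other, step by step along this order, by less than the SD of 0.43 between probe sets of 1 gene. The value of Il6ra is a bound.

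**Figure D3:**
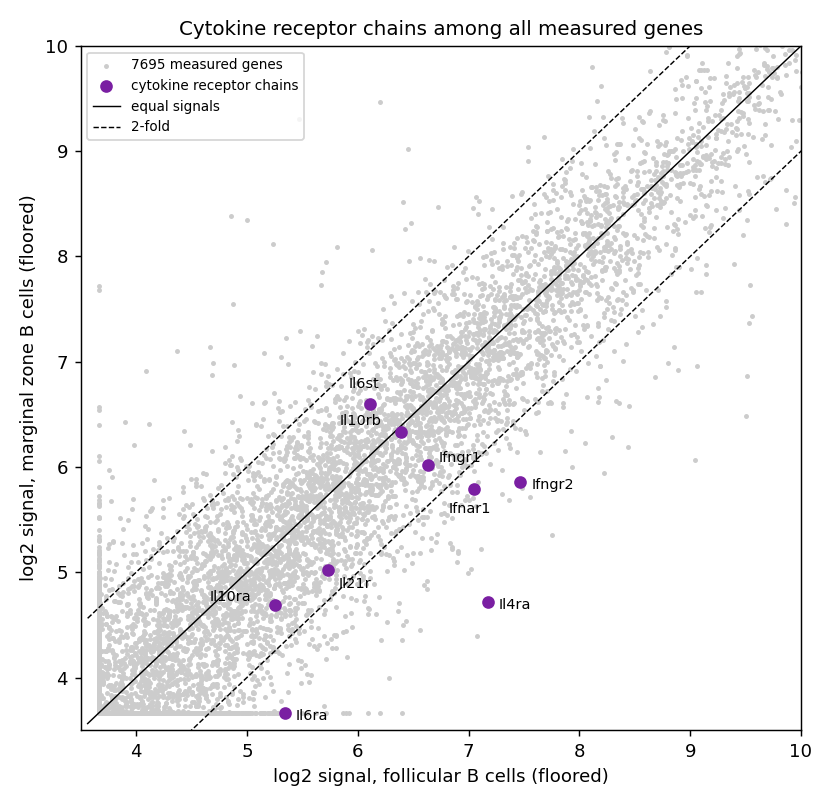
Floored log2 signal in FO (x) against MZ (y) B cells, 1 array each, for the 7695 measured genes (grey) and the 9 cytokine receptor chains (purple); the solid line marks equal signals and the dashed lines 2-fold, and 226 genes with a log2 signal above 10 lie beyond the axes. Il4ra, Il6ra, Ifngr2 and Ifnar1 lie below the lower dashed line.

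Markers of B cells and of other cells were read on the same arrays. Of 8 B cell markers, 7 had a listed probe set and all 7 were measured on the arrays. Of these, 5 were higher in FO and 2 in MZ cells, with 0 and 1 past 2-fold. Blk, the gene past 2-fold, was at 178.7 and 392.5. Cd79b had the lowest log2 ratio of the list, -0.93, while Ms4a1, which encodes CD20, was at 1754 and 1878. The median log2 ratio of these B cell markers was -0.38, the same sign as that of the receptors. T cell markers were dim: 4 of 9 with a listed probe set were measured, 3 of them higher in FO cells and 0 past 2-fold, with a median log2 ratio of -0.15. Their summed signals were 57.0 and 26.0, and 57.9 and 55.8 with values below the floor set to it. Cd3e was at 17.2 and 1.29 and Cd4 at 13.9 and 1.98, while Cd3d, Cd3g and Cd8a were below the floor on both arrays. Macrophage and monocyte markers lay the other way: 8 of 14 were measured, all 8 higher in the MZ sample, as Il6st was, and 2 past 2-fold. The 2 were Csf1r, at 17.3 and 42.5, and Cd5l, at 11.1, below the floor, and 26.7. Summed signals of the 8 were 75.4 and 196.0, and 117.3 and 196.0 with the floor, since 5 of the 8 were below it in FO cells. Marco, Siglec1 and Fcgr1 were below the floor on both arrays. NK cell and dendritic cell markers, 2 and 3 measured, were also all higher in the MZ sample, with 0 past 2-fold. Neutrophil markers were split, with 1 higher in FO and 2 in MZ cells, as were plasma cell markers, with 2 and 4. All 5 measured follicular markers were higher in FO cells, 4 past 2-fold, and all 6 measured marginal zone markers were past 2-fold in MZ cells. These lists include the sort antigens, Fcer2a and Cr2. T cells and macrophages can carry several of these receptors, and the part of such cells in the receptor signals was not tested.

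The other receptor chains of both classes were read from a list of 35. Of these, 25 had a listed probe set and 15 were measured, of which 0 were at least 2-fold higher in FO and 2 in MZ cells, with a median log2 ratio of 0.19. Il5ra, the interleukin-5 receptor alpha chain, was at 19.7 and 52.4, 2.66-fold higher in MZ cells. Ebi3, a soluble receptor-like subunit of interleukin-27, was at 20.9 and 47.1, 2.25-fold higher there. Il27ra, which binds interleukin-27, was at 43.6 and 23.6, 1.85-fold higher in FO cells. Both calls in MZ cells ended with a floor at the 75th percentile, with log2 ratios of 0.19 for Il5ra and 0.04 for Ebi3. That of Ebi3 also ended with a pseudocount (0.83). Lower floors added calls on both sides: 3 in FO and 4 in MZ cells with a floor at the 25th percentile, and 2 and 4 with no floor.

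The kinases and STAT factors used by the receptors mostly had somewhat higher signals in FO cells. Of 4 JAK kinases, 0 passed 2-fold in either direction and the median log2 ratio was -0.23. Jak1, which serves all of the receptor complexes described here, was at 341.4 and 218.8, 1.56-fold higher in FO cells, and its 3 probe sets had log2 ratios between -0.82 and -0.64. Jak2 (1.19-fold) and Tyk2 (1.15-fold) were slightly higher in FO cells and Jak3, the kinase of the common gamma chain, 1.38-fold higher in MZ cells from signals of 12.7 and 17.5. Of 6 measured STAT factors, 1 was at least 2-fold higher in FO and 0 in MZ cells, with a median of -0.55. That was Stat5a, at 34.2 and 15.7 and 2.17-fold, a call lost when a pseudocount replaced the floor (log2 ratio -0.72). Stat4 (1.77-fold), Stat2 (1.49-fold) and Stat3 (1.43-fold) were also higher in FO cells. Stat6, the factor that Il4ra activates, was outside the genes chosen for naming and was added after its values were seen: it was at 80.7 and 66.2, 1.22-fold higher in FO cells.

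Inhibitors of the pathway went both ways. Of 16 measured, 1 was at least 2-fold higher in FO and 1 in MZ cells, with a median of -0.36. Socs3, which binds gp130 and blocks signalling through STAT3, was at 289.9 and 101.4, 2.86-fold higher in FO cells. Its 3 probe sets ran from -2.23, a bound since the MZ signal was below the floor, to -1.51 on the log2 scale. Of these, 1455899_x_at and 1456212_x_at are of the type with probes that may cross-hybridise. Cish, an inhibitor induced through STAT5, was at 18.9 and 51.6, 2.73-fold higher in MZ cells, and within 2-fold with a floor at the 75th percentile (log2 ratio 0.17). Sh2b3 was at least 1.79-fold higher in FO cells and Socs6 1.74-fold higher in MZ cells. With a floor at the 25th percentile, or with no floor, 3 inhibitors were past 2-fold in FO and 1 in MZ cells.

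Ligands of the receptors were nearly all below the floor. Of 16 with a listed probe set, 2 were measured, 0 at least 2-fold higher in FO and 1 in MZ cells. Il10, the ligand of Il10ra and Il10rb, had signals of 2.93 and 42.2 and so was at least 3.33-fold higher in MZ cells, beside receptor chains that differed by 1.47-fold and 1.04-fold the other way. Il7 was at 12.8 and 6.73, of which the latter was below the floor. Il4, Il21, Il6 and Ifng were below the floor on both arrays. With a floor at the 25th percentile, 0 ligands were past 2-fold in FO and 4 in MZ cells.

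Genes known to be induced through these receptors were read from lists set out with earlier results of the data known. Of 9 measured genes induced by interleukin-4 in B cells, 1 was at least 2-fold higher in FO and 0 in MZ cells, with a median of -0.01. That gene was Fcer2a, which encodes CD23, the antigen of the sort gate, at 726.8 and 89.6, and it is therefore no result of the comparison. The others were within 2-fold by the floored values, with Nfil3 1.76-fold higher in MZ cells and H2-Ab1 1.36-fold higher in FO cells, beside the 5.49-fold difference of Il4ra itself. Il4i1, at 12.7 and 4.85, and Bcl2l1, at 15.7 and 2.18, were below the floor in MZ cells. Their ratios are bounds, and the list median is the bound of Il4i1. The count at least 2-fold higher in FO cells was 2 with a floor at the 25th percentile and 3 with no floor, and it stayed 0 in MZ cells. The brightest probe set of Xbp1 was 1.66-fold higher in MZ cells, yet the log2 ratios of all 4 measured ran from -0.98 to 0.73, so its direction depends on the probe set. Cd86, a costimulatory ligand added after its values were seen, was 1.34-fold higher in MZ cells by its brightest probe set and 2.35-fold by the other.

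Of 12 measured genes induced by interferon gamma, 2 were at least 2-fold higher in FO and 0 in MZ cells, with a median of -0.46. Irf1, a transcription factor of the interferon response, was at 288.1 and 98.2, 2.93-fold higher in FO cells. Ciita, the activator of MHC class II genes, had signals of 32.0 and 9.50 (FO higher by at least 2.53-fold), with its other probe set at 2.25-fold, and it was within 2-fold with a pseudocount (log2 ratio -0.71). The guanosine triphosphatases Ifi47 (1.98-fold) and Igtp (1.62-fold) were also higher in FO cells. Of the 12 genes 8 were higher in FO and 4 in MZ cells. Gbp2, another guanosine triphosphatase, added after its values were seen, was higher in MZ cells, with a log2 ratio of 0.58, and at least 2.28-fold higher by its other probe set. With a floor at the 25th percentile, or with no floor, 3 genes of the list were past 2-fold in FO and 1 in MZ cells. With a floor at the 75th percentile the counts were 1 and 0.

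Of 7 measured genes induced by type I interferon, 0 were at least 2-fold higher in FO and 5 in MZ cells, with a median of 1.02. Oas1a, a sensor of double-stranded RNA, was at 21.4 and 54.4, 2.54-fold higher, and the antiviral enzyme Rsad2 was at 46.8 and 99.4, 2.12-fold higher. Oasl1 was 2.10-fold, and Oas2 and Mx1 were each at least 2.02-fold higher. When a pseudocount replaced the floor, 0 of these reached 2-fold in MZ cells, and with a floor at the 75th percentile 1 of the list did. With a floor at the 25th percentile the counts were 2 in FO and 6 in MZ cells. The macrophage, NK cell and dendritic cell markers above were higher in the same sample, and the part of such cells in these signals was not tested.

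Genes induced through STAT3, the factor of the interleukin-6, interleukin-10 and interleukin-21 receptors, were split, with 3 of the 7 measured past 2-fold in FO and 2 in MZ cells, with a median of -0.96. Beside Socs3, the nuclear regulator Bcl3 was 2.99-fold or more higher, at 37.9 and 11.8, and Bcl6, the germinal centre repressor, at 549.2 and 203.1, 2.70-fold higher in FO cells. The other probe set of Bcl6 was 1.31-fold higher, and as the mean of both it was within 2-fold (log2 ratio -0.91). Il10, with the values above, and Prdm1, the plasma cell regulator, at 12.7 and 30.9 and 2.43-fold, were higher in MZ cells. The Prdm1 call was lost with a pseudocount (log2 ratio 0.78), and with a floor at the 75th percentile neither gene was measured, which left 0 of the list past 2-fold in MZ cells. No ratio of these lists was tested against that of the receptors.

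**Figure D4:**
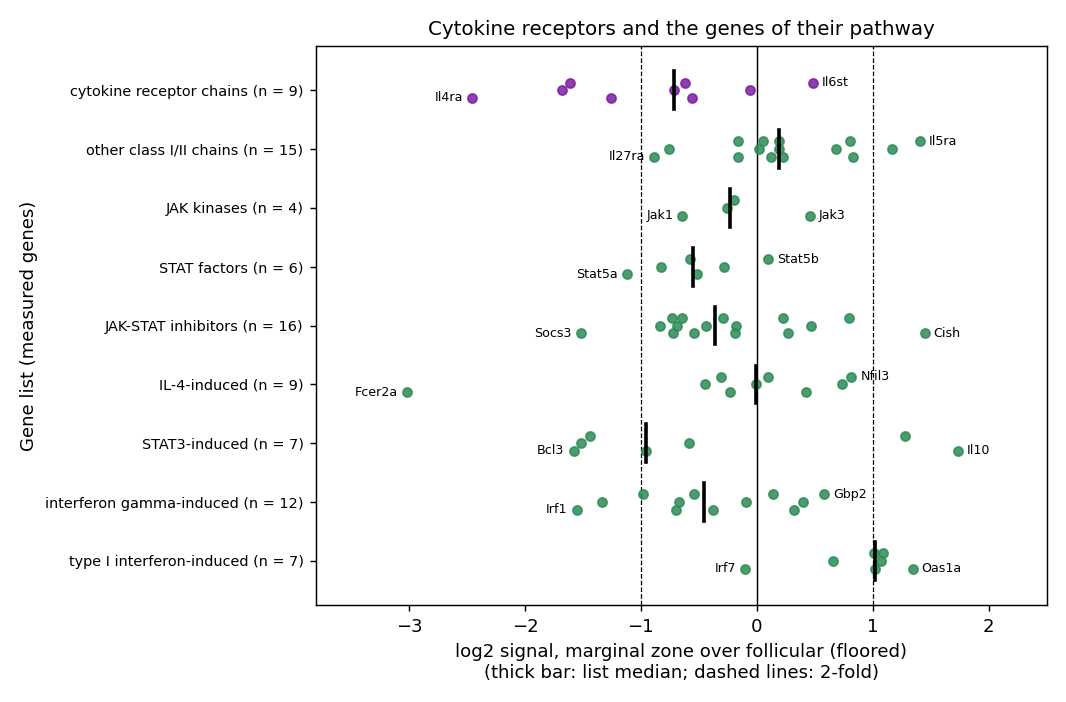
Log2 ratio of MZ over FO signal for each measured gene of the receptor group (purple) and of the pathway lists (green), 1 array per population, with the list median as a thick bar, 2-fold as dashed lines and the lowest and highest gene of each list named. The median is -0.71 for the 9 receptor chains, 0.19 for the other class I and II chains and 1.02 for the type I interferon-induced genes.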

How the data were processed

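Expression was measured on 2 single-channel Affymetrix arrays, 1 per population, from biotin-labelled RNA amplified in 2 cycles, per the labels' protocols. The deposited values are 1 linear intensity per probe set and array, MAS5 signals per the submitters' processing notes. The MAS5 version and its scaling target were not stated, and detection calls were not used here. MAS5 subtracts mismatch from perfect-match probes, so dim values are noisy. Medians were 12.8 and 12.6.

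Signals were scaled to the same 2% trimmed mean (factors 1.01 follicular, 0.990 marginal zone), floored at their common median of 12.7 and log2-transformed. Of 22626 probe sets, 20380 had 1 annotated gene, 691 several and 1555 were not listed; 12847 exceeded the floor. Each gene took its brightest measured probe set. Differences of at least 2-fold were counted. Python 3.11.15, numpy 2.4.6 and pandas 2.3.3 were used.

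Members and lists were chosen with earlier results of these data known. Named were all receptors and, per pathway list, genes past 2-fold, filled up to 4 by absolute log2 ratio. The neighbouring genes Nsmce1, Gtf3c1 and Tmem50b were named outside this rule. Alternatives were 4 scalings, 4 treatments of low signals, 2 probe set rules and thresholds of 1.5-fold and 3-fold. Promoters are RefSeq's, GRCm38.p6.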

Additional observations from a re-analysis of the deposited data

How the results depend on the processing

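No paired analysis was possible because each population has 1 array. Under 10 alternatives of scaling, floor and probe set rule, each of the 9 receptor genes kept its direction wherever it was measured. The median log2 ratio of the receptors stayed between -0.86 and -0.54. The count at least 2-fold higher in FO cells was 4 under 7 of them. It was 3 of 7 measured with a floor at the 75th percentile, 3 as the mean of probe sets and 1 with the second brightest probe set, where only Il4ra and Ifngr2 have a value. It was 6 at 1.5-fold and 3 at 3-fold. The shares of all genes past these thresholds were not computed, so these counts have nothing to be set against. Il4ra ran from -2.46 to -1.46 (the latter a bound), Il6ra from -1.76 to -1.11, Ifnar1 from -1.26 to -1.10 and Il6st from 0.42 to 0.54. Ifngr2 dropped below 2-fold as the mean of its probe sets (-0.93) and by the second (-0.26). Probe set 1423996_a_at of Il4ra, at -0.69, was past 2-fold with a floor at the 25th percentile (-2.41), a pseudocount (-1.23) or no floor (-3.88). The median over all genes, -0.03, turned to 0.023 when arrays were scaled to the same median. Low signals set the limit: Il6ra and 2 probe sets of Il4ra are below the floor in MZ cells, so their folds are bounds. The causes of these shifts were not tested.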

Other observations

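Nsmce1, a subunit of the SMC5/6 complex, is the protein-coding gene next to Il4ra on chromosome 7 in the RefSeq order of GRCm38.p6. It was at 138.2 and 37.3, 3.70-fold higher in FO cells by probe set 1455927_x_at, of the type with probes that may cross-hybridise. By its other probe set it was at 24.0 and 8.91, at least 1.90-fold higher. On the other side of Il4ra lie Il21r, with a log2 ratio of -0.71, and Gtf3c1, a subunit of transcription factor IIIC, with -0.74, both within 2-fold. All 4 genes in a row thus had the higher signal in FO cells, as did 52.2% of all measured genes.

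Several class II chains are neighbours on chromosome 16, in the order Ifnar2, Il10rb, Ifnar1, Ifngr2, followed by Tmem50b. Along this order the log2 ratios of MZ over FO signal were 0.83, -0.05, -1.26, -1.61 and -0.87. Adjacent receptor genes thus lay on both sides of 0, with Ifnar2 the only one of the 5 clearly higher in MZ cells. No replicate exists to test differences between neighbours.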
